A study of Rattus norvegicus with 10 samples.

Results

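The 2 sets of rat lacrimal glands compared here were those titled as experimental, taken 7 days after the greater superficial petrosal nerve had been cut (denervated, n = 5), and those titled as contralateral controls, also taken after 7 days (n = 3). They were selected by title alone, and they make up 8 of the 10 glands of the series. A sham-operated gland at 7 days and a normal gland without operation, 1 of each, served only to show on which side of a difference a gland without nerve section lay. Total RNA of each gland was hybridised to 1 Affymetrix rat array of 8799 probe sets. The labels give no strain, age or sex, and no group carries a transgene or drug treatment in them. The 3 control glands are contralateral in their titles but ipsilateral to the experimental side in their descriptions; the titles were followed, so the side of these glands is not settled. The labels do not say whether each gland is from an animal of its own; p-values here therefore reflect only how much these glands varied, part of which may be technical.

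The lacrimal gland makes the watery layer of the tear film. Its acinar cells build secretory proteins on the rough endoplasmic reticulum, fold and glycosylate them there, and store them in granules that are released when parasympathetic nerve endings deliver acetylcholine and vasoactive intestinal peptide. The greater superficial petrosal nerve carries the preganglionic fibres of that supply to the pterygopalatine ganglion. Cutting it removes the central drive of secretion while the ganglion cells remain, and the gland also holds ducts, myoepithelial cells, vessels, fibroblasts and resident immune cells, all of which contribute RNA.

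Values are log2 intensities throughout, and a difference is denervated minus contralateral, with its standard error (SE) from the limma model. Intensities under 156.2 were raised to that floor (7.29 on the log2 scale). A difference with floored glands only in the lower group therefore understates the change, whereas floored glands in the higher group can overstate it. The median intensity of an array lay between 553.5 and 979, and the correlation of log2 intensity across probe sets, which are not independent, from 0.72 to 0.91 among the 8. Contralateral 1, denervated 1 and the sham gland stood apart on the first principal component (at -51.7 for denervated 1, -54.3 for sham and close to these for contralateral 1, against -5.3 to 38.2 for the others). Denervated 2 and denervated 5 stood apart on the second (31.1 and 70.1, against -37.1 to 13.2). Counts below are therefore also given without contralateral 1 and denervated 1, and without denervated 2 and denervated 5, where these change them by more than 1.5 times. No detection calls were used here. Precision is limited by how few arrays there are, and the median SE of a difference was 0.57.

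No probe set passed an adjusted p of 0.05 in limma: 0 of 6118 were called (0%), against 413 (6.75%) at an unadjusted p under 0.05, made up of 237 (3.87%) higher and 176 (2.88%) lower in denervated glands. The 5 denervated and 3 contralateral glands did not overlap for 290 probe sets (4.74%), 134 higher (2.19%) and 156 lower (2.55%). Of the 3621 genes tested, each by the probe set with the highest mean, 240 (6.63%) had an unadjusted p under 0.05, 131 of them higher (3.62%) and 109 lower (3.01%), and 170 (4.69%) did not overlap. Denervated means were above contralateral means for 48.7% of these genes and below for 51.3% (probe sets 49.5% and 50.5%), and the median difference over genes was -0.02. These shares are the background for every gene group below. Counts of probe sets at an unadjusted p under 0.05 depended on single glands: 804 without denervated 1, 264 without denervated 2, 242 without contralateral 3, 624 without contralateral 1 and denervated 1, and 190 without denervated 2 and denervated 5. In that last setting 40.5% of them were higher, against 57.4% with all glands.

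The smallest adjusted p belonged to Rab12, a small GTPase of vesicle and endosome traffic. Its log2 intensity was 8.22, 7.29 and 7.29 in contralateral glands 1 to 3 and 10.50, 10.98, 10.60, 10.63 and 10.57 in denervated glands 1 to 5, a difference of 3.06 ± 0.48 (SE; n = 5 and 3; limma adjusted p = 0.213). The 5 denervated glands lay close together and far above the 3 contralateral glands, of which 2 were at the floor. The unoperated gland, at 9.23, lay in the gap on the contralateral side of its middle, and the sham gland, at 10.27, just under the denervated range. Ackr3, a receptor that scavenges the chemokine CXCL12, read 7.64, 7.74 and 7.29 in contralateral and 10.07, 10.40, 9.67, 9.50 and 11.21 in denervated glands (2.61 ± 0.56, limma adjusted p = 0.690). Its groups did not overlap either, and the unoperated and sham glands, at 8.38 and 9.10, were again in between.

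Other genes with the smallest p among those higher in denervated glands included genes of immune cells and mucosal defence, with a limma adjusted p of 0.690. Aif1, a calcium-binding protein of macrophages, read 7.57, 7.29 and 7.29 in contralateral and 9.01, 10.48, 9.63, 9.83 and 9.68 in denervated glands (2.34 ± 0.54). The sham gland was at the floor and the unoperated gland at 8.31, so the denervated glands lay above every other gland. Dmbt1, a secreted scavenger receptor of mucosal surfaces, read 12.14 to 13.36 in contralateral and 13.71, 15.56, 14.42, 14.38 and 15.95 in denervated glands (1.97 ± 0.48). Denervated 1 was the lowest of the 5, yet the groups did not overlap, and the unoperated and sham glands (12.33 and 11.78) lay with the contralateral ones. A second Dmbt1 probe set, also without overlap, differed by 1.32 ± 0.44.

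Casp1, the protease that matures interleukin-1 beta, read 8.86, 8.90 and 7.29 in contralateral and 10.55, 10.76, 9.48, 10.06 and 11.72 in denervated glands (2.17 ± 0.62), with 8.10 and 7.57 in the unoperated and sham glands. Its other probe sets differed by 1.01 ± 0.70 and 0.38 ± 0.36, so the size rests on 1 probe set. Ccl11, the eosinophil-attracting chemokine eotaxin, differed by 2.07 ± 0.59 and Serpina3n, a secreted protease inhibitor of the acute phase response, by 1.94 ± 0.55. For both, the unoperated and sham glands lay on the contralateral side of the gap. Lgals3bp, a secreted glycoprotein that binds galectins, differed by 2.26 ± 0.49, but its unoperated and sham values, 11.09 and 11.84, fell within the denervated range of 10.59 to 12.54 and not with the contralateral range of 8.57 to 9.91. The same position was seen for Nbl1, a secreted antagonist of bone morphogenetic proteins (2.13 ± 0.54). For Cnrip1 (2.11 ± 0.54) the unoperated gland, at 9.51, lay within the denervated range of 8.91 to 9.86 and the sham gland, at 11.05, above it.

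**Figure D1:**
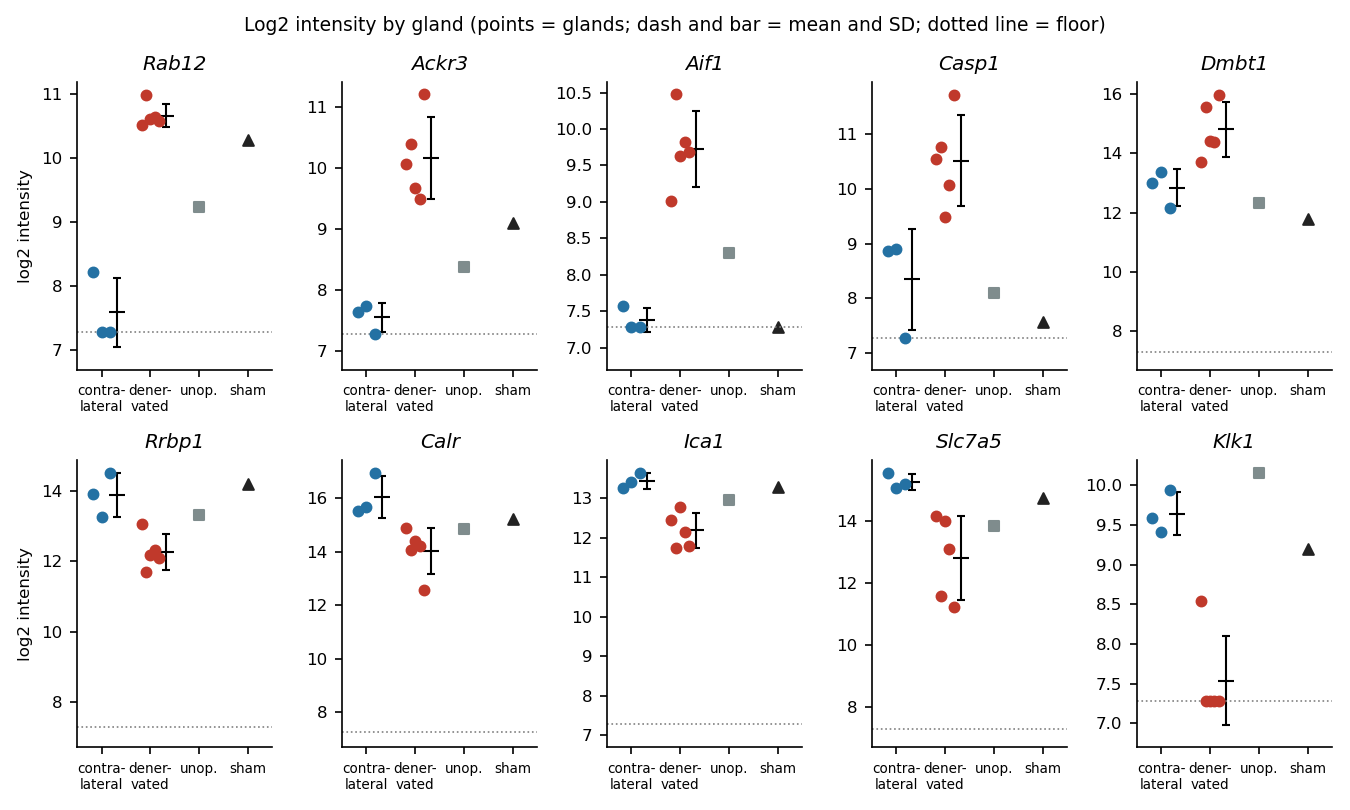
Log2 intensity of 10 genes in each gland: contralateral (blue, n = 3), denervated (red, n = 5), unoperated (grey square) and sham (black triangle), with mean and SD beside each group and the floor as a dotted line. Contralateral and denervated glands do not overlap in any panel; Rab12 ranges from 7.29 to 8.22 in contralateral and from 10.50 to 10.98 in denervated glands, and Klk1 is at the floor in 4 of 5 denervated glands.

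Among the genes lower in denervated glands, proteins of the secretory pathway led. Rrbp1, which tethers ribosomes to the rough endoplasmic reticulum of secretory cells, read 13.91, 13.27 and 14.53 in contralateral and 13.06, 11.69, 12.18, 12.32 and 12.10 in denervated glands (-1.64 ± 0.36). The unoperated and sham glands, at 13.32 and 14.22, lay in the contralateral range. Calr, a calcium-binding chaperone for glycoproteins, was lower at each of its 3 probe sets, by -2.03 ± 0.48, -1.82 ± 0.47 and -1.49 ± 0.41, none with overlap. At the first of these it read 15.54, 15.68 and 16.96 in contralateral and 14.89, 14.09, 14.42, 14.21 and 12.58 in denervated glands. The unoperated gland, at 14.87, lay within the denervated range there, and the sham gland, at 15.24, in the gap. Ica1, a protein of secretory granule and Golgi membranes, read 13.25, 13.40 and 13.65 against 12.46, 11.75, 12.78, 12.15 and 11.79 (-1.24 ± 0.30).

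Slc7a5, the light chain of the leucine-preferring amino acid exchanger LAT1, read 15.55, 15.05 and 15.18 in contralateral and 14.15, 11.58, 14.01, 13.08 and 11.21 in denervated glands (-2.46 ± 0.62). Denervated 2 and denervated 5 were lowest, and the unoperated gland, at 13.84, lay within the denervated range. Its heavy chain Slc3a2 differed by -0.84 ± 0.33, with overlap. Klk1, tissue kallikrein, read 9.58, 9.41 and 9.94 against 8.54 in denervated 1 and the floor in the other 4 denervated glands (-2.10 ± 0.58), whereas a second probe set differed by only -0.11 ± 0.65; kallikreins are a family of near-identical genes, so probe sets may share signal. Rock1, a kinase of the actin cytoskeleton, was at the floor in 4 denervated glands and at 8.83 to 9.62 in contralateral ones (-1.82 ± 0.55), while the unoperated and sham glands read 9.32 and 10.39. Pla2g6, a calcium-independent phospholipase, and Penk, the precursor of the enkephalin neuropeptides, differed by -1.34 ± 0.40 and -1.63 ± 0.58, with both glands without nerve section beside the contralateral ones. All genes in these paragraphs had a limma adjusted p between 0.690 and 0.702, apart from Rab12 and the second probe sets with p over 0.05.

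The machinery that brings new proteins into the endoplasmic reticulum was lower as a group in denervated than in contralateral glands. All 12 tested members of the translocation and glycosylation list had lower means in denervated glands, 9 of 12 at an unadjusted p under 0.05 (background 3.01% of genes) and 6 without overlap (background 2.82%), with a median difference of -0.81. Besides Rrbp1 they were Slc35b1, an ATP carrier of the reticulum (-1.15 ± 0.29), the oligosaccharyltransferase subunits Ddost (-1.0 ± 0.32), Dad1 (-1.05 ± 0.38), Rpn2 (-0.84 ± 0.34) and Rpn1 (-0.55 ± 0.25), the channel subunits Sec61a1 (-0.96 ± 0.39) and Sec61b (-0.68 ± 0.30), and the translocon-associated Ssr4 (-0.79 ± 0.27). Sec61a1 read 14.31, 14.06 and 14.38 in contralateral and 13.99, 12.90, 13.91, 13.53 and 12.13 in denervated glands. Denervated 1 was nearest to the contralateral glands and denervated 5 furthest from them. The count of 9 was 2 without contralateral 3, 5 without denervated 2, with or without denervated 5, and 5 under median scaling or without the variance trend. The summed intensity of the list did not overlap, with 166900 to 350400 in denervated and 390700 to 489300 in contralateral glands. For 3 of the 6 genes without overlap, the unoperated and sham glands both lay on the denervated side of the gap. Both lay on the contralateral side for 1. In whole glands, fewer cells of a type and less RNA per cell cannot be told apart.

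Chaperones and folding enzymes of the same compartment gave 18 of 21 lower means and a median difference of -0.77. Of these, 11 had an unadjusted p under 0.05 (background 3.01%) and 4 did not overlap (background 2.82%). None was higher at an unadjusted p under 0.05. Hspa5, the central chaperone of the lumen (BiP), read 14.90, 14.89 and 16.15 in contralateral and 14.73, 13.67, 14.00, 14.38 and 13.90 in denervated glands (-1.18 ± 0.35), with 14.28 in the unoperated and 15.43 in the sham gland. Hsp90b1, its HSP90-family partner, differed by -1.28 ± 0.39, and 2 other probe sets by -1.04 ± 0.37 and -1.25 ± 0.47. At the first, the unoperated gland (13.98) lay within the denervated range of 13.38 to 14.85, and the sham gland read 15.21. Ero1b, an oxidase that drives disulfide formation, differed by -1.24 ± 0.41, and the disulfide isomerases Pdia4, P4hb and Pdia3 by -1.19 ± 0.44, -1.21 ± 0.45 and -0.92 ± 0.32. Serp1, which stabilises membrane proteins during translocation, differed by -1.20 ± 0.48 (a second probe set by -0.56 ± 0.50), the prolyl isomerases Fkbp11 and Ppib by -0.88 ± 0.36 and -0.77 ± 0.30, and the lectin chaperone Canx by -0.64 ± 0.27. The count of 11 was 3 without contralateral 3, 6 without denervated 2 and denervated 5, and 7 without the variance trend. The summed intensity of the folding list was 223900 to 578000 in denervated and 594700 to 976400 in contralateral glands, again without overlap. Bright genes weigh most in such a sum. By mean log2 intensity over the list minus the contralateral mean, denervated 1 (-0.14) lay within the contralateral range (-0.19 to 0.37). For 2 of the 4 genes without overlap, the unoperated and sham glands both lay on the denervated side of the gap. Both lay on the contralateral side for 0.

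**Figure D2:**
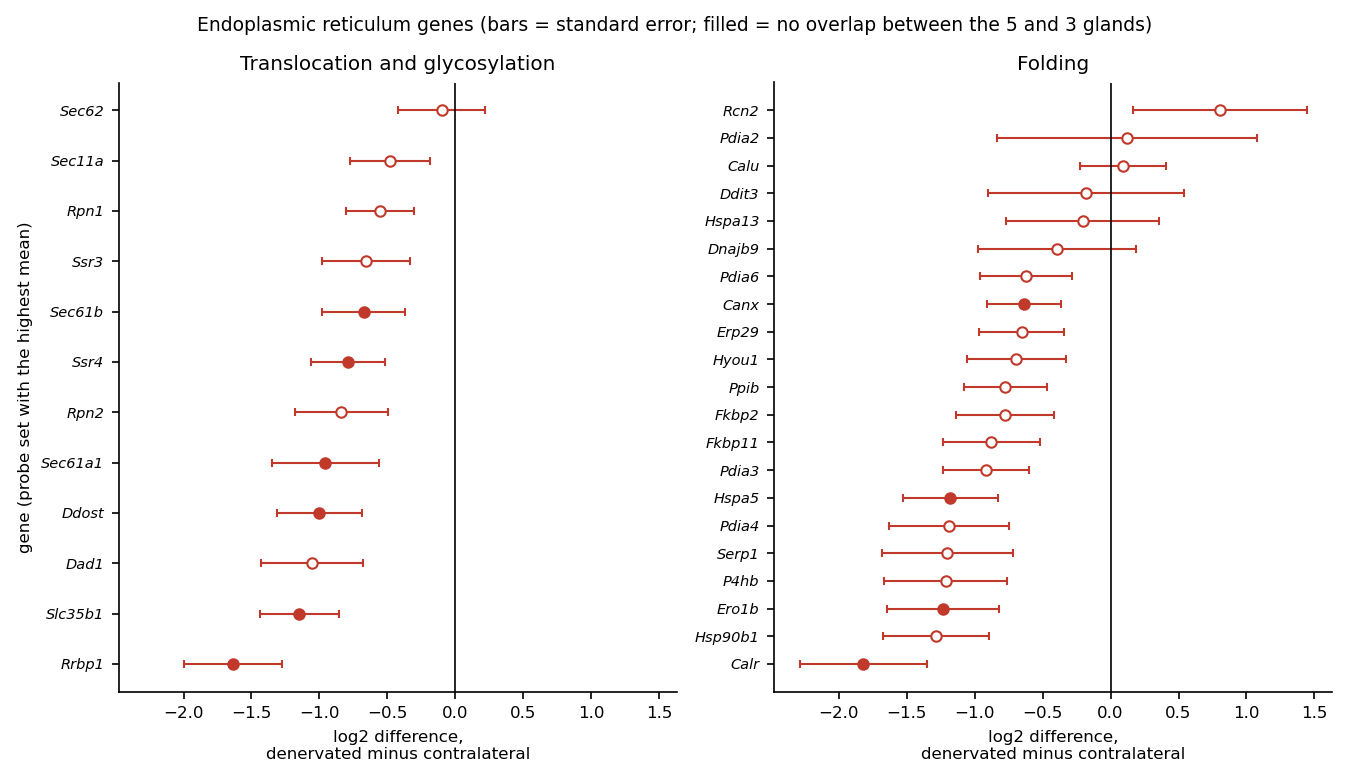
Log2 difference, denervated minus contralateral, with SE for the 12 translocation and glycosylation genes (left) and the 21 folding genes (right), 1 probe set per gene; filled points are genes whose 5 denervated and 3 contralateral glands do not overlap. All 12 points on the left and 18 of 21 on the right lie below 0, from -1.64 for Rrbp1 and -1.82 for Calr upward.

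Many folding genes carry the ER stress element, the sequence through which the transcription factor ATF6 raises them when unfolded protein accumulates. The promoter windows (250 bases before to 50 after the start site, RefSeq, GRCr8) of 19 folding members were searched on both strands for CCAAT and CCACG with 9 bases of any kind between them. The full element was found in 5 of 19 (26.3%), against 22 of 33469 windows of all genes (0.0657%) and 6 of 2981 genes tested on the array (0.201%). It was in 0 of 10 windows of the translocation list, whose members were lower as well. The 5 genes with the element, Hspa5, Hsp90b1, Calr, Canx and Ero1b, were all among the 11 lower at an unadjusted p under 0.05. A match is a description of the letters, not of binding. The windows of the 3 folding genes with the smallest p are printed because they lead the group, with each matched element in capitals; the reverse-strand match reads as its complement. They lie at chr19:40213117-40213416 (Calr, plus strand), chr7:23012244-23012543 (Hsp90b1, minus strand) and chr3:38452766-38453065 (Hspa5, plus strand).
Calr: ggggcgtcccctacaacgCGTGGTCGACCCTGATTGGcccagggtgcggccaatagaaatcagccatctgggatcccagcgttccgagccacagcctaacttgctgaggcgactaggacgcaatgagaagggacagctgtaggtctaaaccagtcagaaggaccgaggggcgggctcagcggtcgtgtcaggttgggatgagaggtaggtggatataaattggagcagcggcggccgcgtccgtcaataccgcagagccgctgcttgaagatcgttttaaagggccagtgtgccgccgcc
Hsp90b1: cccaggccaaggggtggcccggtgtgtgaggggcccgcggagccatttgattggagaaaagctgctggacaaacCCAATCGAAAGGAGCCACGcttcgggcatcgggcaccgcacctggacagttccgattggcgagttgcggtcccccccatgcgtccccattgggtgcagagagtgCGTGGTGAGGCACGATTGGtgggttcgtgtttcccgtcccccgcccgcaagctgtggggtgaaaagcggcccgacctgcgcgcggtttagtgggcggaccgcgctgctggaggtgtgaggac
Hspa5: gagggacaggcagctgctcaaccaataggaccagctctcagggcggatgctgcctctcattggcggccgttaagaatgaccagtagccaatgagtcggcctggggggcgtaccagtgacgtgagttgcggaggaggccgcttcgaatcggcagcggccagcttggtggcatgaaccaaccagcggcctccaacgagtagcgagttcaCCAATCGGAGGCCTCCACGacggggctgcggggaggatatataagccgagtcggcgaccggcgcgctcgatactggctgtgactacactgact
The element of Hspa5 began 43 bases before the start site, and Hsp90b1 held it on both strands, 176 and 72 bases before it. In Calr it began 232 bases before the start. The other two elements read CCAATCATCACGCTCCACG (Canx, 230 bases before the start) and CGTGGTCCCGCCTCATTGG (Ero1b, 224 bases before, reverse strand).

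Genes of vesicle budding, docking and fusion were lower more often than higher, 49 against 15 of 64, with a median difference of -0.31. At an unadjusted p under 0.05, 6 were lower (background 3.01% of genes), and 10 were lower without overlap (background 2.82%). The single member higher at that threshold was Rab12. The lower ones included Tmed10, a cargo receptor of early transport vesicles, at 16.38, 16.45 and 16.63 in contralateral and 16.00, 15.09, 15.85, 15.65 and 15.23 in denervated glands (-0.93 ± 0.29). Napa and Nsf, which together take apart SNARE complexes after fusion, differed by -0.90 ± 0.30 and -1.70 ± 0.62, Nsf being at the floor in 3 denervated glands. A second Napa probe set differed by -0.23 ± 0.31. Lman1, a lectin that exports glycoproteins from the reticulum, differed by -1.18 ± 0.50, while its second probe set differed by 0.10 ± 0.77. Rab3d, the GTPase of mature lacrimal granules, read 12.90, 12.85 and 12.92 against 12.74, 11.60, 12.83, 12.59 and 11.95 (-0.55 ± 0.32, limma adjusted p = 0.780). Its groups did not overlap, but the gap was 0.02 and the difference did not reach an unadjusted p of 0.05. Of 31 genes of amino acid transport and polyamine synthesis, 23 had lower means, with a median of -0.26, and 3 an unadjusted p under 0.05 (background 3.01%).

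The genes that present peptides on MHC class I and those induced by interferon differed in the other direction. All 23 tested members had higher means in denervated glands, with a median difference of 0.77; 6 were higher at an unadjusted p under 0.05 (background 3.62%) and 4 did not overlap (background 1.88%). Psmb8, a catalytic subunit of the immunoproteasome, read 11.78, 12.60 and 12.46 in contralateral and 12.84, 13.49, 13.57, 13.53 and 13.36 in denervated glands (1.08 ± 0.29). The unoperated gland, at 12.87, sat beside denervated 1, and the sham gland, at 11.81, beside contralateral 1. Irf7, the transcription factor that amplifies the interferon response, read 8.79, 8.58 and 8.90 against 8.85, 12.61, 12.56, 10.72 and 11.71 (2.54 ± 0.75). Denervated 1 was at the contralateral level and the other 4 were far above it, and a second Irf7 probe set differed by 0.01 ± 0.92.

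Mx2, an antiviral GTPase, read 8.35, 7.45 and 7.29 in contralateral and 9.49, 11.04, 11.35, 7.29 and 11.23 in denervated glands (2.38 ± 0.89), with denervated 4 at the floor. Slfn5, a Schlafen family member, differed by 1.71 ± 0.47, Eif2ak2, the RNA-sensing kinase PKR, by 1.22 ± 0.51, and the class I gene RT1-S3 by 1.0 ± 0.37. RT1 genes form a multigene family of near-identical sequences, so their probe sets may share signal. The count of 6 was 10 without denervated 1, with the glands' numbers as a block or with array weights.

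The interferon-stimulated response element, bound by interferon regulatory factors and STAT complexes, was searched for on both strands as GAAA, 2 bases of any kind and GAAA. It was in the windows of 11 of 22 members, against 1312 of 33469 windows (3.92%) and 96 of 2981 genes tested (3.22%), and in 1 of 9 MHC class II windows (11.1%) and 2 of 19 folding windows (10.5%). The 6 members higher at an unadjusted p under 0.05 included 4 with a match, namely Psmb8, Irf7, RT1-S3 and Eif2ak2. The windows of Psmb8 (chr20:4656982-4657281, minus strand) and Irf7 (chr1:205799974-205800273, minus strand), the list members with the smallest p and the largest difference, are printed with the matched letters in capitals, both on the reverse strand.
Psmb8: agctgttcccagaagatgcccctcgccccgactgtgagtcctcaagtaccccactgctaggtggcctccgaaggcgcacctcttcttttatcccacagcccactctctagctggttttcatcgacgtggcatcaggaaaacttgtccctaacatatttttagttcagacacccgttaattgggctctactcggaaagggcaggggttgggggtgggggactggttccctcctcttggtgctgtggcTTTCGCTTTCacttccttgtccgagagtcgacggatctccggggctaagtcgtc
Irf7: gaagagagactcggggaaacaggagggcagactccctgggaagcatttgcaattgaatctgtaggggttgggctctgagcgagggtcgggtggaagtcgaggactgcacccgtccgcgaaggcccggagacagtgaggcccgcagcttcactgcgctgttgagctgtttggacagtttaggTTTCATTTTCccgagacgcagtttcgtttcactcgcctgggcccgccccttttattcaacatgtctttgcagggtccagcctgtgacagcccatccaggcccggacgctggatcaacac
The match began 4 bases before the start site in Psmb8 and 69 bases before it in Irf7. As with the element of the folding genes, the lists were assembled by known function, so a high share of matches is a property of the lists and says nothing on these glands.

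MHC class II genes and macrophage markers were also higher on balance. Of 10 class II genes 8 had higher means, with a median of 0.76, and 5 an unadjusted p under 0.05 (background 3.62%). RT1-Db1, a beta chain, read 10.29, 10.73 and 10.56 in contralateral and 11.15, 12.43, 12.39, 11.38 and 12.41 in denervated glands (1.42 ± 0.39), with 11.75 in the unoperated and 10.91 in the sham gland. RT1-DMb, a peptide exchange chaperone, differed by 1.51 ± 0.51 and RT1-Da, an alpha chain, by 1.17 ± 0.43; a further RT1-Ba probe set differed by -0.82 ± 0.51 while the others differed by 1.51 ± 0.52 and 0.81 ± 0.33. The count of 5 was 8 without contralateral 1 and denervated 1, 3 without denervated 2, 2 without contralateral 2 or contralateral 3, 3 without the variance trend, and 1 without denervated 2 and denervated 5.

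Of 19 tested macrophage markers 16 had higher means, with a median of 0.69, and 3 an unadjusted p under 0.05 (background 3.62%). Cd53, a tetraspanin of leukocytes, read 9.93, 10.30 and 9.43 in contralateral and 10.09, 11.43, 11.23, 11.77 and 11.69 in denervated glands (1.36 ± 0.45). Apoe, a lipid carrier made by macrophages among others, differed by 1.57 ± 0.62, and the second Aif1 probe set by 1.57 ± 0.58. The count of 3 was 9 without denervated 1, with or without contralateral 1, 7 with array weights, 6 with the block, and 0 without denervated 2 and denervated 5. The summed intensity of the macrophage list ran from 118300 to 436000 in denervated and from 96160 to 197300 in contralateral glands, so the sums overlapped. Their part in the class II and interferon differences was not tested.

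**Figure D3:**
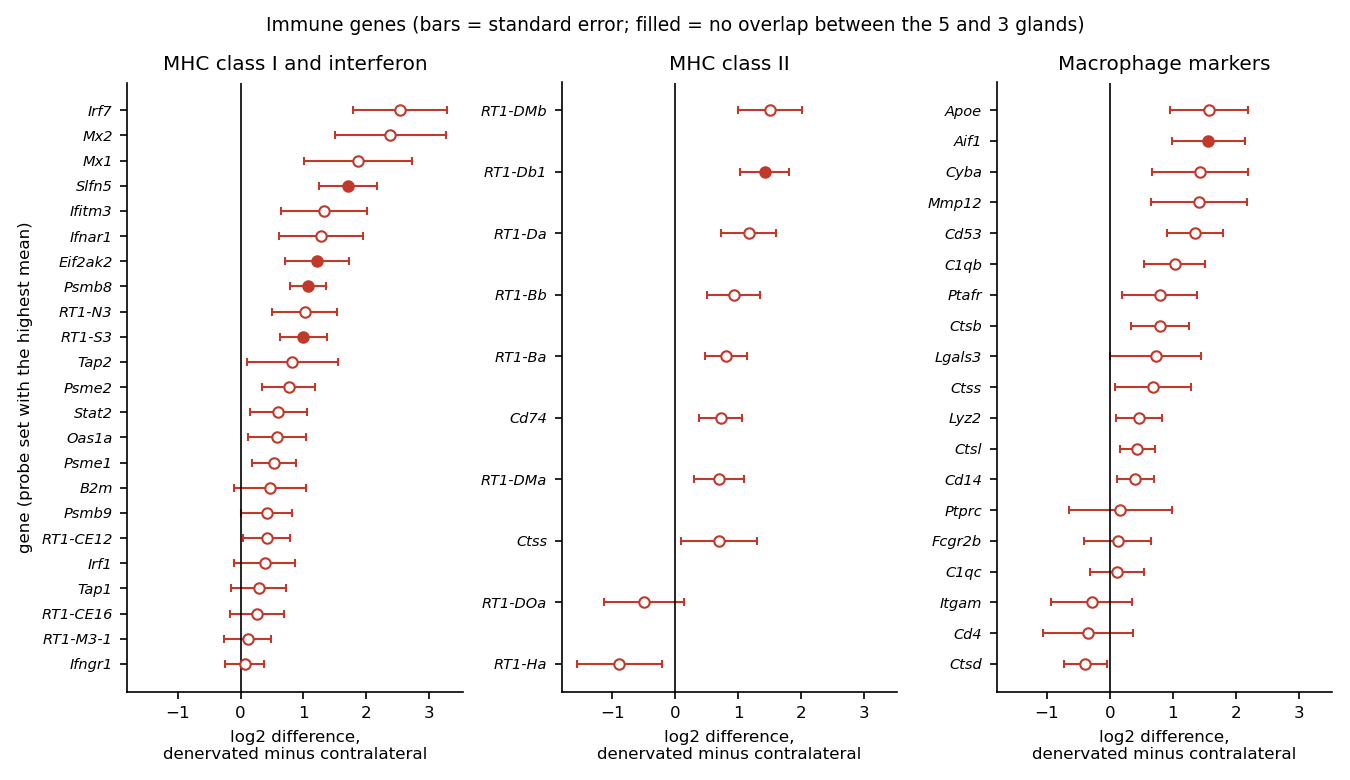
Log2 difference, denervated minus contralateral, with SE for MHC class I and interferon genes (23), MHC class II genes (10) and macrophage markers (19), 1 probe set per gene; filled points are genes without overlap between the groups. All 23 points on the left lie above 0, with 8 of 10 and 16 of 19 in the other panels.

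Connective tissue genes were higher in 37 of 48 cases (median 0.54), 13 at an unadjusted p under 0.05 (background 3.62%). Col1a1, the main fibrillar collagen chain, read 11.90, 13.50 and 10.96 in contralateral and 12.50, 15.49, 15.03, 13.39 and 16.27 in denervated glands (2.41 ± 0.79). The sham gland, at 14.93, lay between the 2 lower and the 3 upper denervated glands. Fibronectin, Fn1, differed by 1.87 ± 0.60, Col3a1 by 2.19 ± 0.85, and the metalloproteinase inhibitor Timp2 by 1.49 ± 0.47. Pdgfra, a growth factor receptor of fibroblasts, differed by 1.24 ± 0.39 without overlap, and another probe set by -0.30 ± 0.59. The count of 13 was 0 without denervated 2 and denervated 5, 5 without either alone, 6 without contralateral 3, 8 without contralateral 1, and 6 with no filter on low values. The summed intensity of the list was 186800 to 734900 in denervated and 177300 to 233700 in contralateral glands.

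Contractile and myoepithelial genes were higher in 18 of 20 cases (median 0.72) and complement and coagulation genes in 20 of 23 (median 0.72). At an unadjusted p under 0.05, 1 and 2 of them were higher (background 3.62%). Of the coagulation genes Vwf, von Willebrand factor, was lower at that threshold (-1.72 ± 0.74). Tagln, an actin-binding protein of smooth muscle and myoepithelium, differed by 1.30 ± 0.46, and the basal keratin Krt5 by 1.43 ± 0.69. The complement protease C1r and its inhibitor Serping1 differed by 1.66 ± 0.58 and 1.42 ± 0.51, and C3 read 12.26, 13.52 and 13.17 in contralateral against 11.93, 14.97, 14.73, 14.91 and 14.35 in denervated glands (1.20 ± 0.61). Denervated 1 lay below all 3 contralateral glands for C3 and the other 4 above them. Without denervated 1 these counts were 8 contractile and 6 complement genes; without denervated 2 and denervated 5 both were 0. With the glands' numbers as a block they were 6 and 5. The complement count was also 4 without contralateral 2 or contralateral 3, 1 without contralateral 1, 8 without contralateral 1 and denervated 1, 7 with array weights and 4 in the fit of 3 classes. The contractile count was 3 without denervated 3, 0 without contralateral 1, and 2 without contralateral 2, without contralateral 3 or without contralateral 1 and denervated 1.

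Markers of other cells were set beside these groups. Blood cell genes were higher in 9 of 10 cases (median 0.80), 0 of them at an unadjusted p under 0.05, with summed intensities of 60230 to 389300 in denervated and 35240 to 186700 in contralateral glands. Mast cell genes were higher in 6 of 8 cases (median 0.79; sums 8809 to 55170 and 10390 to 16620), and the receptor Kit differed by 1.66 ± 0.65 at its better probe set. T and natural killer cell genes were split 9 to 9, with a median of 0.06. Within that list Coro1a, an actin regulator of all leukocytes, differed by 2.62 ± 0.67, and Cd247, the zeta chain of the T cell receptor, by 1.51 ± 0.54; Cd247 was at the floor in all 3 contralateral glands but at 8.62 and 9.67 in the unoperated and sham glands. Gzmb, a protease of cytotoxic granules, was lower without overlap at both probe sets, by -1.76 ± 0.62 and -1.41 ± 0.61. Endothelial genes were higher in 8 of 14 cases (median 0.25), Schwann and nerve genes in 21 of 42 (median 0.00), and adipocyte genes in 9 of 14 (median 0.35). The part of these cells in the differences was not tested.

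Ribosomal protein genes were higher in 37 of 37 cases by a small amount (median 0.42, range 0.04 to 0.82). Of these, 3 had an unadjusted p under 0.05 (background 3.62%) and 4 did not overlap (background 1.88%). After quantile normalization 34 of 37 were higher, and 32 of 37 with the block, without denervated 5, or without denervated 2 and denervated 5. The count of 3 was 5 without denervated 1 or with array weights, 1 without denervated 2, denervated 4 or denervated 5, with the block, under median scaling or without the variance trend, and 0 without contralateral 3 or without denervated 2 and denervated 5. Rpl39 read 14.11, 14.43 and 14.02 in contralateral and 14.54, 15.35, 14.59, 15.07 and 15.49 in denervated glands (0.82 ± 0.29); the unoperated and sham glands, at 14.71 and 14.86, were within the denervated range. Respiratory chain genes gave 15 higher and 26 lower of 41 (median -0.08), cytosolic heat shock genes 12 and 10 of 22 (median 0.02) and proteasome genes 10 and 17 of 27 (median -0.05). None of the first 2 lists reached an unadjusted p of 0.05 and 1 of 27 proteasome genes did, lower in denervated glands (background 3.01%).

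Receptors for the transmitters of the cut pathway did not reach the threshold. Of 17 cholinergic genes 7 were higher and 10 lower (median -0.10), 0 at an unadjusted p under 0.05. Chrm3, the muscarinic receptor that drives lacrimal secretion, read 12.25, 12.40 and 11.82 in contralateral and 12.25, 11.74, 12.09, 12.07 and 11.64 in denervated glands, a difference of -0.20 ± 0.28 with a 95% interval of -0.82 to 0.42. Its second probe set differed by -0.58 ± 0.64. Chrm1 and Chrm2 differed by -0.97 ± 0.62 (interval -2.31 to 0.37) and -1.05 ± 0.70 (interval -2.57 to 0.47). The acetylcholine-degrading enzyme Ache differed by -0.10 ± 0.67 and the synthesising enzyme Chat by -0.42 ± 0.69. The intervals of Chrm1 and Chrm2 include a level 2-fold lower, and that of Chrm3 at the first probe set does not.

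The remaining 12 cholinergic genes, mostly nicotinic receptor subunits of muscle and neurons, differed by -0.56 to 0.86. Among 30 adrenergic, purinergic and peptide signalling genes, 4 had an unadjusted p under 0.05. Of these 3 were lower (background 3.01%) and 1 was higher (background 3.62%). P2ry2, a nucleotide receptor that triggers fluid secretion, read 8.75, 7.29 and 7.29 in contralateral and 8.80, 10.17, 9.61, 10.04 and 10.61 in denervated glands (2.07 ± 0.62), and the unoperated and sham glands (9.65 and 9.09) lay on the denervated side. The lower 3 were Penk, the melanocortin receptor Mc5r (-1.49 ± 0.58) and the somatostatin receptor Sstr3 (-1.33 ± 0.60). The receptor genes Vipr1 and Adra1a and the neuropeptide gene Npy did not reach an unadjusted p of 0.05, and their signs turned between settings. The secretin receptor Sctr differed by -1.90 ± 0.60 at 1 probe set and -0.25 ± 0.62 at another.

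Genes of ion and water transport were evenly split, 22 higher and 23 lower of 45. At an unadjusted p under 0.05, 2 were higher (background 3.62%) and 3 lower (background 3.01%). Slc12a2, the chloride-loading cotransporter NKCC1 of secretory cells, was higher at all 3 probe sets, by 2.17 ± 0.71, 0.98 ± 0.43 and 0.81 ± 0.55. At the first it read 9.96, 9.52 and 7.29 in contralateral and 10.34, 12.53, 10.21, 10.57 and 11.80 in denervated glands. Slc12a3, the thiazide-sensitive relative, differed by -1.62 ± 0.44, Atp2a2, the calcium pump of the endoplasmic reticulum, by -0.82 ± 0.27 (3 further probe sets by -0.99 ± 0.56, -0.38 ± 0.34 and 0.03 ± 0.49), and Scnn1a, a sodium channel subunit, by -1.32 ± 0.59. Scnn1a read 9.60 to 9.86 in contralateral glands. The unoperated gland, like denervated 5, was at the floor of 7.29. The sham gland, at 7.60, lay between denervated 5 and the other denervated glands (7.91 to 9.09). The water channel Aqp5 differed by 0.30 ± 0.34 and 0.21 ± 0.41, with a sign that depended on contralateral 1.

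Acinar markers gave no common direction, 3 higher and 5 lower of 8, with summed intensities of 187300 to 1645000 in denervated and 361300 to 1500000 in contralateral glands. Those at an unadjusted p under 0.05 were 2 higher, Dmbt1 and Slc12a2 (background 3.62%), and 0 lower (background 3.01%). Bhlha15, the transcription factor Mist1 that builds the secretory apparatus, read 16.65, 15.31 and 15.50 in contralateral and 16.04, 12.12, 15.27, 14.70 and 12.63 in denervated glands (-1.67 ± 0.78), lowest in denervated 2 and denervated 5. Of 20 lacrimal secretory genes 12 were higher and 8 lower (median 0.38). At an unadjusted p under 0.05, 3 were higher (background 3.62%) and 0 lower (background 3.01%). The 3 were Dmbt1, which is also in the acinar list, Lgals3bp (1.51 ± 0.52) and the protease inhibitor Cst3 (0.97 ± 0.40). Some secretory transcripts varied widely within both groups. Dnase1 read 19.24, 11.54 and 12.68 in contralateral and 18.33, 13.73, 10.56, 9.57 and 13.90 in denervated glands, and was also high in the sham gland (19.46). Smr3a, a submandibular-type secretory protein, read 10.95, 17.47 and 17.81 against 7.66, 7.29, 16.39, 15.64 and 7.47 (-4.51 ± 2.30). Gp2, Clu and Lcn2 differed by 0.80 ± 1.08, 0.83 ± 0.95 and 0.78 ± 0.81, each low in contralateral 1, denervated 1 and the sham gland.

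A score per gland, the mean over a list of log2 intensity minus the contralateral mean, shows which glands carry these differences. The folding score was -0.96, -0.54, -0.76 and -1.13 in denervated 2 to 5, below all 3 contralateral glands (-0.19 to 0.37) and below the unoperated and sham glands (-0.49 and -0.22). In denervated 1 it was -0.14. The interferon and class I score was 1.17, 1.52, 0.86 and 0.90 in denervated 2 to 5, against -0.15 to 0.25 in contralateral glands and 0.51 and 0.25 in the unoperated and sham glands, and again 0.13 in denervated 1. For the macrophage list the 4 glands scored 0.61 to 1.03 and denervated 1 scored -0.21. In these 3 lists, denervated 2 to 5 lay beyond the 3 contralateral, the unoperated and the sham glands, and denervated 1 did not. The same was seen for ER translocation, exocytosis, complement, contractile, amino acid, antioxidant and adipocyte genes. For translocation and exocytosis, denervated 1 (-0.28 and -0.12) lay below the contralateral glands but not below the unoperated gland (-0.33 and -0.20). The translocation score was -0.16 in the sham gland and -1.28 to -0.60 in denervated 2 to 5. The adipocyte scores of denervated 2 to 5 were 0.38 to 0.61, against -0.32 to 0.19 in contralateral glands and -0.20 in denervated 1, and the part of adipocytes was not tested. Denervated 1 shared with contralateral 1 and the sham gland the position on the first principal component, and with contralateral 1 the high Dnase1; the part of this in its scores was not tested. The salivary-type secretory genes, like translocation and exocytosis, put all 5 denervated glands (-2.05 to -0.34) below all 3 contralateral glands (-0.24 to 0.32). Of the 39 lists, only the salivary-type one put these 5 beyond the unoperated (0.87) and sham (0.14) glands as well. Of the 10 salivary-type genes 7 were lower and 3 higher, with 1 lower at an unadjusted p under 0.05 (background 3.01%). The largest difference in that list was that of Smr3a, which varied widely within both groups. A score without Smr3a was not computed. By the Smr3a values above, that gene alone makes up more than the shortfall of denervated 1 (-0.60) in this mean over 10 genes. The separation of denervated 1 therefore rests on Smr3a. The connective tissue score split otherwise, with 1.21 and 1.40 in denervated 2 and denervated 5, 0.57 and 0.15 in denervated 3 and denervated 4, and 0.71 in the sham gland.

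**Figure D4:**
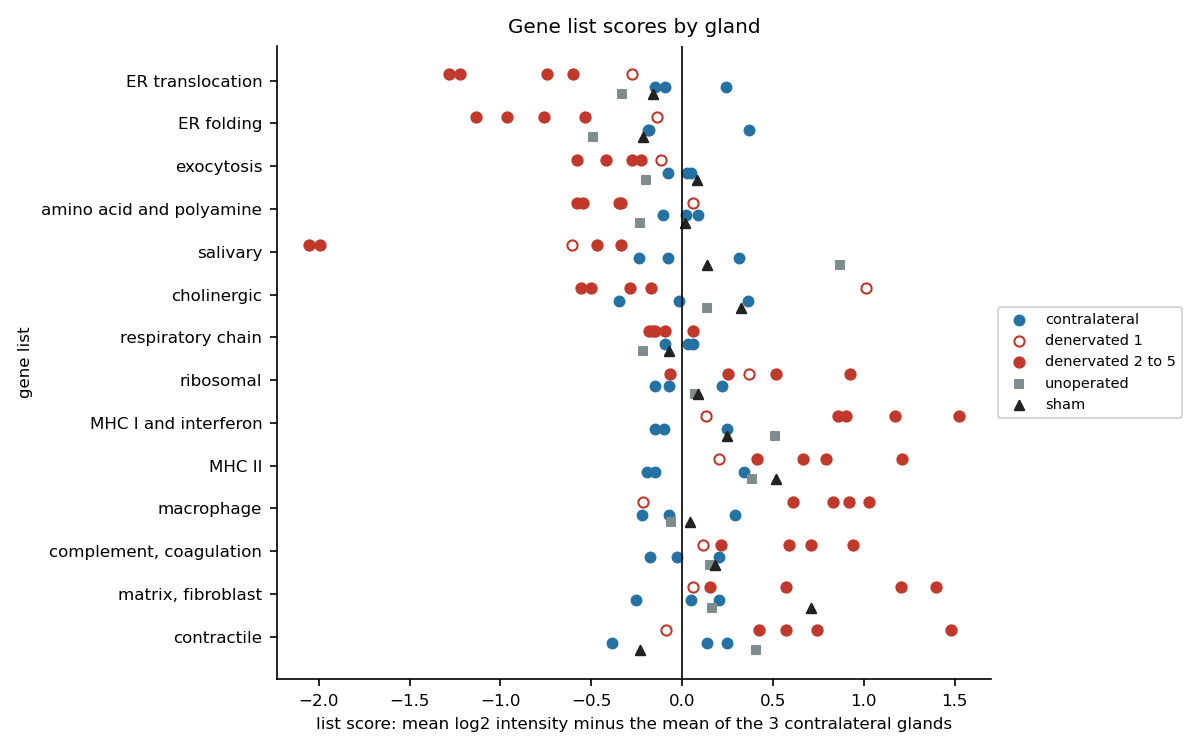
Score of each gland for 14 gene lists, on the log2 scale with the mean of the 3 contralateral glands at 0: contralateral (blue), denervated 2 to 5 (filled red), denervated 1 (open red), unoperated (grey square) and sham (black triangle). For ER folding the filled points span -1.13 to -0.54 and denervated 1 is at -0.14; for MHC I and interferon they span 0.86 to 1.52 and denervated 1 is at 0.13.

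The unoperated and sham glands tell on which side the 290 probe sets without overlap differed, with 1 gland of each kind and so as a description only. Each was placed by the middle of the gap between the groups. Both lay with the contralateral glands for 83 probe sets (28.6%), so that the denervated side stood apart, and both lay with the denervated glands for 86 (29.7%), so that the contralateral side stood apart. The remaining probe sets were split, with the sham gland alone beside the contralateral glands for 73 (25.2%) and the unoperated gland alone for 48 (16.6%). On a scale where 0 is the contralateral and 1 the denervated mean, the median position was 0.45 for the unoperated and 0.28 for the sham gland.

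Lower and higher probe sets are given apart. Among the 156 lower probe sets the denervated side stood apart for 52 (33.3%) and the contralateral side for 43 (27.6%); among the 134 higher ones the figures were 31 (23.1%) and 43 (32.1%). Higher on the denervated side with the widest gaps were Ccl11, Casp1, Pdgfra and Prdx6, an antioxidant enzyme (0.92 ± 0.36, but 0.30 ± 0.28 and 0.22 ± 0.48 with overlap at 2 further probe sets), and lower were Rock1, Lrrc7, a synaptic scaffold protein (-1.60 ± 0.55), Klk1, Pla2g6 and Penk. Genes placed with the contralateral side apart included Cnrip1, Cd247, Nbl1, Lgals3bp and the protein kinase Pkn2 (1.61 ± 0.57), with low contralateral values. Pkn2, for example, read 7.58, 7.29 and 7.29 in contralateral glands, 9.74, 8.92, 8.42, 9.29 and 8.62 in denervated glands, and 9.90 and 9.97 in the unoperated and sham glands. High contralateral values were those of Prkd3, a protein kinase D (-1.99 ± 0.59), Scnn1a, Uqcc2, the scaffold protein Shank1 (-1.72 ± 0.48) and Tmed10. Uqcc2, a respiratory chain assembly factor, differed by -1.10 ± 0.38, and a second probe set, at -0.62 ± 0.30, put the denervated side apart. For Tmed10 the unoperated and sham glands, at 16.17 and 16.16, lay in the gap, just past its middle. Their positions, 0.34 and 0.35 on the scale from 0 to 1, were nearer to the contralateral mean.

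**Figure D5:**
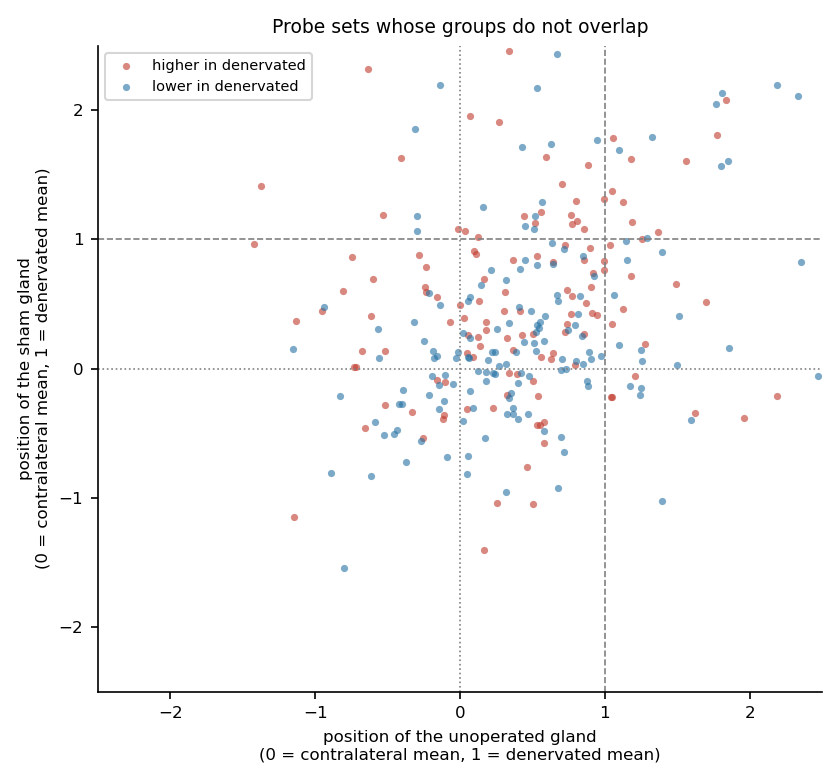
Position of the unoperated gland (x axis) and the sham gland (y axis) for probe sets whose denervated and contralateral glands do not overlap, where 0 is the contralateral mean and 1 the denervated mean; 282 are drawn, and 8 lie beyond the axes at 2.5. Points near 0 on both axes differ on the denervated side and points near 1 on both differ on the contralateral side; the medians are 0.45 and 0.28.

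RNA quality, as the log2 ratio of the 3 prime to the 5 prime control probe set, did not separate the groups. Beta-actin averaged 0.65 in denervated and 0.93 in contralateral glands (exact permutation p = 0.179, two-sided, 0.536 after Benjamini-Hochberg adjustment over 3 genes). GAPDH differed by 0.01 (exact p = 0.857) and hexokinase by -0.24 (exact p = 0.821), both 0.857 after adjustment. With 5 and 3 glands, 56 arrangements exist and the smallest two-sided p is 0.0357.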

How the data were processed

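Each of the 10 arrays measured the RNA of 1 gland. The deposited values are linear signal intensities per probe set, already scaled by the authors: array means with 2% trimmed at each end were 2505 to 2506.8. The scaling software is not given in the sources used here. Affymetrix control probe sets (59) were not tested. Values were floored at the 20th percentile (156.2) and put on the log2 scale, and 6118 of 8740 probe sets with a mean above the 30th percentile over 10 arrays were tested. The test was limma 3.58.1 in R 4.3.3 (empirical Bayes with variance trend, two-sided, Benjamini-Hochberg adjustment), on 5 denervated and 3 contralateral arrays, and was tested on simulated data. Gene symbols came from the platform annotation: 7006 probe sets had 1 symbol, 308 several and 1426 none.

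Named genes were the 20 with the smallest p in each direction (by their best probe set), up to 5 per direction with the widest gap in each class of side, the leading members of 39 gene lists (by their brightest probe set) and a short set of receptors and secretory genes. Other genes named, such as further list members that complete a count, were chosen after their values were seen. The members and lists were chosen with earlier results of these data known. Alternatives covered floor, filter, scaling, variance model, samples in the fit, a replicate block and left-out glands. Those without 2 glands at once were added after seeing the data.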

Additional observations from a re-analysis of the deposited data

Results flagged for a closer look

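A gland stood far from the other 4 denervated glands in 10 of 158 groups of values checked (6.33%), by a ratio of gap to range above 0.71; about 5% are found by chance. Denervated 1 was the distant gland in 7 of them. It was low for Coro1a (9.08, next 10.77), Psmb8 (12.84, next 13.36), C3 (11.93, next 14.35) and Gp2 (8.59, next 12.35), and high for Fkbp11 (14.94, next 13.72). Its cholinergic list score was 1.01 (next -0.17), and its adipocyte list score was -0.20 (next 0.38). Denervated 2 was high for Rab12 (10.98, next 10.63) and low for Chrm1 (7.74, next 9.55). Denervated 5 was high for Prdx6 (11.28, next 10.98). In 2 further groups, Klk1 (denervated 1 at 8.54) and Rock1 (denervated 3 at 7.49), the other 4 glands were at the floor of 7.29; the floor fixes the ratio there, so nothing is read from it.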

How the results depend on the processing

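At an adjusted p under 0.05, limma called 1 probe set, that of Rab12, with array weights and 1 without the variance trend, and 0 in every other setting. The count at an unadjusted p under 0.05 (413) was 640 with array weights, 241 with 1 probe set per gene, 242 to 804 with single glands left out, 624 without contralateral 1 and denervated 1, and 190 without denervated 2 and denervated 5. The count without overlap (290) was 170 with 1 probe set per gene, 363 to 833 with single glands left out, 1333 without contralateral 1 and denervated 1, and 509 without denervated 2 and denervated 5; fewer glands make separation easier. With no filter on low values 45.0% of the probe sets at an unadjusted p under 0.05 were higher. Same-numbered glands deviated together with correlations of 0.49, 0.04 and 0.16, so the numbers were not taken as pairs; with the number as a replicate block, limma gave 499 probe sets at an unadjusted p under 0.05 and 0 adjusted.

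Of 2737 comparisons of 121 named probe sets with 23 settings, 2708 kept direction and side of the threshold, 27 turned sign (13 probe sets) and 2 passed. With all glands each of the differences that turned was smaller than its SE, and the cause was not tested. Turned values were Gp2 -0.17, Vipr1 0.038 and Ache 0.44 with the block, Vipr1 -0.041 with the floor at the 30th percentile, and Aqp5 -0.018 with array weights. Without contralateral 1 and denervated 1 they were Aqp5 -0.031 and -0.19, and without denervated 2 and denervated 5 Chat 0.045, Npy -0.56 and Ache 0.037. With single glands left out, the ranges were -0.090 to 1.42 for Lcn2, -0.035 to 0.61 and -0.29 to 0.71 for the probe sets of Aqp5, -0.38 to 1.62 for Clu and -0.28 to 1.71 for Gp2. They were -3.40 to 0.85 and -2.74 to 1.11 for the probe sets of Dnase1, -0.79 to 0.060 and -0.54 to 0.80 for those of Vipr1, -0.27 to 0.94 for Adra1a, -0.16 to 1.16 for Npy and -0.48 to 0.41 for Ache. The turns of Lcn2, Aqp5, Clu, Gp2 and Dnase1 came without contralateral 1. The GAPDH ratio ranged from -0.27 to 0.17 and the hexokinase ratio from -0.83 to 0.40 over the same omissions, and the hexokinase ratio was 0.030 with no floor. Values at the floor limit the size of differences of dim genes.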
